A study of Mus musculus with 87 samples.

Results

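The E2F family and its pocket-protein partners were followed through liver regeneration in the mouse. The members are the 10 genes E2f1, E2f2, E2f3, E2f4, E2f5, E2f6, E2f7, E2f8, Rbl1 (the gene of p107) and Rbl2 (the gene of p130), taken by symbol from the 37991 genes of a table of log2 RPKM (reads per kilobase of transcript, scaled by the mapped reads of the library). All 10 were found, and all 10 passed the detection threshold of −1.5 on the log2 RPKM scale in at least 1 liver. E2f7 passed it only through the groups in which it was high.

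Poly(A)-selected RNA of individual livers of male C57BL/6 mice, aged 12 to 14 weeks at surgery, was sequenced, and 80 livers in 19 groups were analysed of 87 labelled samples in 20 groups. All mice, controls included, had been entrained to a light and dark cycle and were fed only at night, and surgery was done under isoflurane in the morning, at ZT2 (Zeitgeber time, hours after lights on). The livers of partial hepatectomy (PH) were collected after 1 h (X1, 6 livers), 4 h (X4, 3), 10 h (X10, 6), 20 h (X20, 6), 28 h (X28, 3), 36 h (X36, 6), 44 h (X44, 3), 48 h (X48, 5), 72 h (X72, 3), 1 week (X1W, 3) and 4 weeks (X4W, 2), and those of sham surgery, a laparotomy without resection, after 1 h (S1, 6), 4 h (S4, 5), 10 h (S10, 3), 20 h (S20, 3) and 48 h (S48, 3). Mice without surgery gave 9 livers at the start (C0), 3 livers at the time of day of the 4 h groups (C4) and 2 livers at 4 weeks (C4W). The other 7 labelled samples (3 X4, 3 X60 and 1 X4W) were not analysed here. Each library holds the RNA of all cell types of the liver, and in such bulk RNA fewer cells of a type and less RNA per cell cannot be told apart.

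E2F proteins bind the promoters of genes for DNA synthesis and mitosis. E2F1, E2F2 and E2F3 are activators that work with a DP partner and are held inactive by the retinoblastoma protein until cyclin-dependent kinases phosphorylate it in late G1. E2F4 and E2F5 act mostly as repressors in resting cells together with p130 and p107, and p130, E2F4 and the MuvB proteins form the DREAM complex, which keeps cell-cycle genes silent. E2F6 binds no pocket protein and represses with Polycomb proteins, while E2F7 and E2F8 are atypical members that bind DNA without a DP partner, repress E2F targets late in S phase and are known in the liver for their role in hepatocyte polyploidy.

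The genes lie apart on the genome, except that E2f1 and Rbl1 are both on chromosome 2 and E2f4 and Rbl2 both on chromosome 8. In the mouse assembly mm9, E2f1 spans chr2:154385143-154395628 on the minus strand and Rbl1 chr2:156971629-157030270 on the minus strand. Exons of E2f8 (chr7:56121799-56136966) overlap the antisense gene Gm2788 by 274 bases, and those of Rbl2 (chr8:93593956-93647743) overlap the antisense gene Aktip by 693 bases. Reads had been counted by strand.

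Promoter windows of 8 of the 10 members were in RefSeq (assembly GRCm38.p6, 250 bases before to 50 bases after each annotated start, 10 windows in all). Not every annotated start was the outermost start of its gene. E2f4 and E2f5 had no entry. They were searched on both strands for an E2F motif, written as TTTCCCGC, TTTCGCGC, TTTGCCGC or TTTGGCGC, and for the CHR motif TTTGAA (cell-cycle genes homology region), which share no position in any match described here. The E2F motif was in 4 of the 10 windows, against 2.26% of 32851 mouse promoter windows of the same length, and the CHR motif was in 4 of them, against 17.9%. For E2f2, Rbl1, E2f7 and E2f8, which hold a match and varied the most among the members with their highest group mean at 36 or 44 h, 1 matching window each is shown. Capitals mark the matched motif, on the given strand or as its reverse complement, and the text reads 5′ to 3′ along the gene.
E2f2 (chr4:136172024-136172323, plus strand, E2F motif from position +40 of the start): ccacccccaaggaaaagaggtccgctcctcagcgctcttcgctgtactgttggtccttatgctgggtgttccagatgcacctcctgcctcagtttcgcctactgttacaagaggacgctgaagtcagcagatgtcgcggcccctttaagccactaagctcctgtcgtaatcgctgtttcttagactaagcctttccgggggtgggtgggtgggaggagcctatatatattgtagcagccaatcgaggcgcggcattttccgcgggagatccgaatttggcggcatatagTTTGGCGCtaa
Rbl1 (chr2:157204485-157204784, minus strand, E2F motif from position −18): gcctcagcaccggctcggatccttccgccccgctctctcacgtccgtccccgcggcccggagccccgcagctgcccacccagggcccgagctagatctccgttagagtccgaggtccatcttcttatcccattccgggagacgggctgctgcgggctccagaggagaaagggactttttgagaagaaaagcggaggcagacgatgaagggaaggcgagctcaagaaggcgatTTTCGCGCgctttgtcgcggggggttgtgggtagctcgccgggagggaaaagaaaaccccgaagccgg
E2f7 (chr10:110745189-110745488, plus strand, E2F motif as reverse complement from position −198): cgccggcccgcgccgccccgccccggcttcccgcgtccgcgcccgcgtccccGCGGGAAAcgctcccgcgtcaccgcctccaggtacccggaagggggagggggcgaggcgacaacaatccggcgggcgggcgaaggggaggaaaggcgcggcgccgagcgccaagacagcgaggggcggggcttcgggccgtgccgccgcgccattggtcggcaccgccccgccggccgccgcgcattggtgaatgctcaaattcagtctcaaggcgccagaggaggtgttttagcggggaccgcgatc
E2f8 (chr7:48881547-48881846, minus strand, CHR motif as reverse complement from position −20): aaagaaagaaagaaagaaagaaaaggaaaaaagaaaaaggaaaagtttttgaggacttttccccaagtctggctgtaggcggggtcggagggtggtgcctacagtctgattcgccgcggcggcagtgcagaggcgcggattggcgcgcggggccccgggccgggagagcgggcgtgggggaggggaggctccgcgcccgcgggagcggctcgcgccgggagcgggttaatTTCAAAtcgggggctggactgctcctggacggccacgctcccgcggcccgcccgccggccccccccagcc

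The first E2f3 window held both motifs, with the CHR letters from −23 and the E2F letters, as reverse complement, from −11. The other E2f2 window (chr4:136180532-136180831) had the CHR motif from −31. It belongs to a second annotated start inside the gene and opens with letters that code for E2F2 protein. The Rbl2 window had the CHR motif, as reverse complement, from −201. The window of E2f6 and the second window of E2f3 held neither motif in these letters. Neither did the E2f1 window, which opens with letters that code for E2F1 protein and so lies inside the gene. For E2f1 the sequence before the first exon was not searched. A match is a description of letters and was not tested as a binding site.

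Levels between genes are given as RPKM, which is per length of transcript. In the C0 livers the most abundant E2f transcripts were E2f4 with 5.21 ± 0.44 RPKM (SD, n = 9), E2f6 with 3.24 ± 0.85 and E2f5 with 2.51 ± 0.26. E2f3 with 0.887 ± 0.19, E2f8 with 0.647 ± 0.34 and E2f1 with 0.621 ± 0.14 were lower, E2f2 with 0.110 ± 0.068 was lower still, and E2f7 with 0.0289 ± 0.021 was at the limit of the depth, with an estimated 1.01 to 17.0 reads per liver. Of the pocket proteins, Rbl2 was at 4.19 ± 0.82 RPKM and Rbl1 at 0.269 ± 0.10. The resting liver thus held mostly transcripts of the repressor members and of p130, and the 3 activators together came to 1.62 ± 0.35 RPKM.

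The summed level of the 8 E2f transcripts was 13.3 ± 1.4 RPKM in C0, 15.1 ± 1.1 in S48 (n = 3) and 37.5 ± 6.5 in X36 (n = 6). E2f4 made up 39.5% of that sum in C0 (36.8 to 44.9% in single livers), 51.9% in X4 (50.5 to 52.7%) and 22.7% in X36 (17.9 to 31.5%). E2f1 made up 4.65% in C0 (3.52 to 5.82%), 1.00% in X4 (0.523 to 1.61%) and 20.7% in X36 (14.7 to 25.3%). The share of Rbl1 in the sum of both pocket-protein transcripts was 6.17% in C0 (3.13 to 10.1%) and 57.6% in X44 (52.8 to 66.3%), so that p107 messages outnumbered those of p130 per length in each of the 3 X44 livers.

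**Figure D1:**
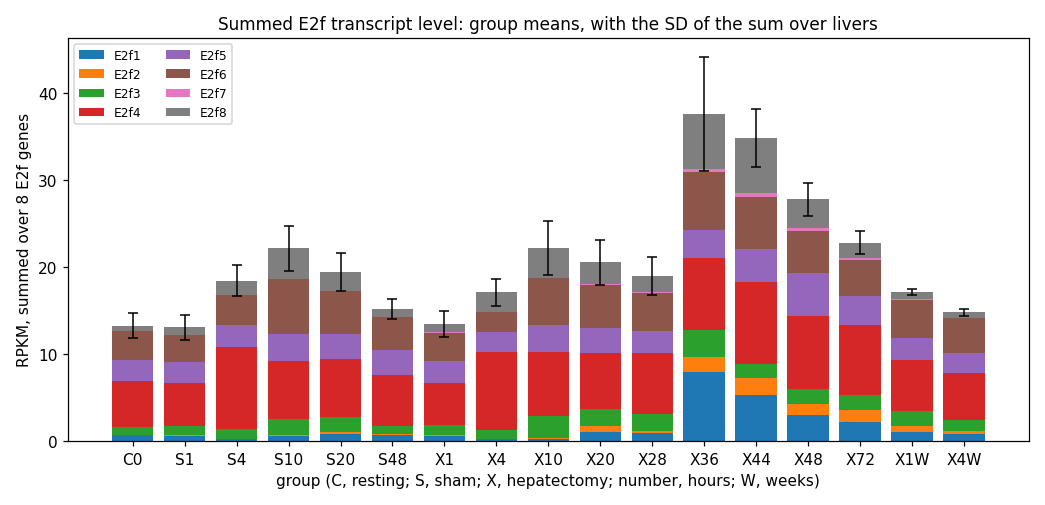
Stacked bars give the mean RPKM of each E2f gene in each group (C, no surgery; S, sham; X, hepatectomy) and the black error bar the SD of the sum over the livers of a group. The sum was 13.3 RPKM in C0 and 37.5 RPKM in X36, where E2f1 made up 20.7% of it.

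Differences between groups were tested with limma on log2(RPKM + 0.25) over the 15396 detected genes, and a gene was called at a Benjamini-Hochberg adjusted p below 0.05 and a log2 difference beyond 0.5. Folds are the antilog of these differences and understate the change of genes with low RPKM. All comparisons with C0 share the same 9 livers. By the study's account these were 3 sets of 3 from 3 experimental periods. The X28, X44, X48, X72 and X1W livers came from 1 of these periods and the X36 livers from 2. Period thus differed in part between these groups and C0, and between X36 and its neighbours X28 and X44. It could not be entered in the fit. For the 10 h, 20 h, 36 h and 44 h groups no unoperated livers of the same time of day were collected. In their comparisons with C0 surgery and time of day cannot be told apart. Nor can time after PH and time of day be told apart between neighbouring PH times from X20 to X48. The number of members called against C0 was highest from 36 to 72 h after PH and was 0 at 4 weeks. The PH groups held from 2 livers (X4W) to 6 (such as X36), so that the same difference could be called in 1 group and not in another. At 1 h none of the 10 was called by limma in X1 (3 had an unadjusted p under 0.05, and 13.5% of all genes tested were called) or in S1 (0 under 0.05, 7.77% of all genes called). At 4 h 2 were higher and 2 lower in X4 (38.2% of all genes called), at 10 h 3 higher and 1 lower in X10 (36.4%), at 20 h 5 were higher in X20 (16.5% of all genes called higher), and at 28 h 4 in X28 (13.6%). From 36 h on 8 members were higher in X36 (25.7% of all genes were called higher), 9 in X44 (30.8%), 9 in X48 (30.4%), 7 in X72 with 1 lower (33.2% called), 4 in X1W (12.4% called higher) and none in X4W (4 had an unadjusted p under 0.05, and 5.62% of all genes were called). After sham surgery 2 were higher and 1 lower in S4 (34.4% called), 3 were higher in S10 (17.9% called higher), 4 in S20 (7.85%) and none in S48 (0 under 0.05, 8.88% called). At 4 h and at 10 h the counts of members were thus close to the share over all genes, and at 36 to 48 h they were far above it. The counts from 36 to 72 h include E2f7, which passed the detection threshold only through X36 and X44 livers. E2f7 is also in the counts given below for X28 to X36, for X48 against S48 and for the change of PH minus sham from 20 to 48 h.

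The median of all genes itself moved against C0, by 0.16 in X36, 0.23 in X44 and 0.24 in X48 on the log2 scale, and by −0.20 in X4. Of all genes called, 73.5% were higher in X36 and 79.9% in X48, and with all libraries brought to 1 median these shares became 38.0% and 34.1%. Under that scaling limma called 5113 of 15396 genes in X36, 5200 in X44, 4812 in X48, 4306 in X72 and 3357 in X20. Higher genes made up 38.0%, 33.8%, 34.1%, 40.8% and 37.4% of these calls, in that order. In the same scaling the counts of members called higher were 5 in X44, X48 and X72, 7 in X36 and 3 in X20. None of the 105 single calls changed direction in this scaling. The members that lost their call to it between 36 and 72 h were E2f3, E2f4, E2f5, E2f6 and E2f7, each at some of these times. The calls of E2f1, E2f2, E2f8 and Rbl1 at 36, 44, 48 and 72 h held under every alternative run.

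**Figure D2:**
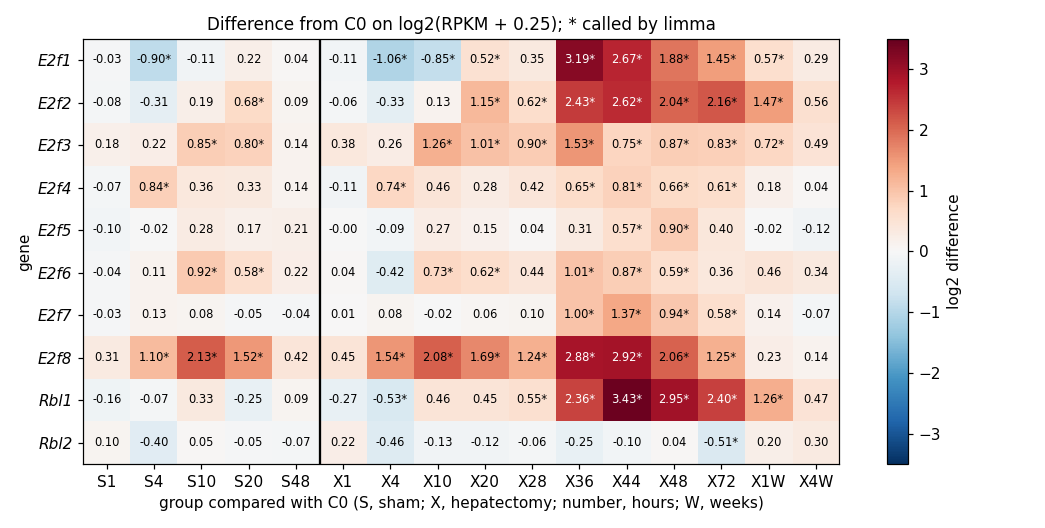
Each cell gives the limma difference from C0 on log2(RPKM + 0.25) for a gene (row) and a group (column), with sham groups left and hepatectomy groups right of the black line, and an asterisk marks a call. The differences of E2f1, E2f2, E2f8 and Rbl1 were above 1.8 in X36, X44 and X48, and no member was called in S1, S48, X1 or X4W.

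E2f1, an activator of S-phase genes that is also known to induce apoptosis genes, first fell and then, at 36 h, stood further above C0 than any other member. In C0 its level ran from 0.443 to 0.852 RPKM, with a median of 0.605. In X4 it was 0.157, 0.246 and 0.0945 RPKM, in the 5 S4 livers 0.129, 0.191, 0.239, 0.320 and 0.198, and in C4, at the same time of day without surgery, 0.567, 0.583 and 0.487. Every liver of both surgeries at 4 h was thus below every liver without surgery. Against C0 the difference was −1.06 ± 0.21 (SE; adjusted p = 1.44e-05, limma) in X4 and −0.90 ± 0.17 (adjusted p = 1.05e-05) in S4. Against C4 it was −0.95 ± 0.26 (adjusted p = 0.00118) in X4, where 3 members were called (45.6% of all genes), and −0.79 ± 0.23 (adjusted p = 0.0026) in S4, and with a pseudocount of 1 the 4 differences lay between −0.47 and −0.35 and were too small for a call. By the study's account the C4 livers came from an experimental period that gave neither X4 nor S4 livers, so that in every comparison with C4 surgery and period cannot be told apart. Markers of other cells were also lower against C4, with 5 of 5 stellate, 4 of 4 B-cell and 5 of 6 erythroid markers called lower in both X4 and S4, and 6 of 9 macrophage markers in X4 and 5 in S4. Against C0 these counts were 4, 3, 1 and 4 in X4, and in S4 5 stellate and 3 B-cell markers were called lower. Of all genes, 45.6% in X4 and 43.3% in S4 were called against C4, and 38.2% and 34.4% against C0, in either direction. The part of these other cells in the 4 h differences was not tested.

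At 10 h E2f1 parted between the surgeries. The 6 X10 livers had 0.153, 0.199, 0.142, 0.304, 0.185 and 0.447 RPKM, still below C0 but for the highest, while the 3 S10 livers had 0.513, 0.446 and 0.703. The groups met at a single pair of values, 0.447 in X10 and 0.446 in S10. E2f1 was lower in X10 than in S10 by −0.74 ± 0.22 (adjusted p = 0.0192, limma), and it was the only member called in this comparison, where 7.02% of all genes were called. The call was lost without S10 replicate 1 (adjusted p = 0.0508), without S10 replicate 3 (adjusted p = 0.15) and when only X10 replicates 4 to 6 were used (−0.53, adjusted p = 0.239).

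At 20 h the 6 X20 livers were split, with 1.37, 1.59, 1.5 and 1.08 RPKM in replicates 1 to 4 and 0.481 and 0.455 in replicates 5 and 6, which lay inside the range of C0. The S20 livers had 0.627, 0.811 and 0.827 RPKM. X20 was above C0 by 0.52 ± 0.17 (adjusted p = 0.00629, limma), a call that was lost when X20 replicate 1, 2 or 3 was left out (0.44, 0.41 and 0.42) and when C0 replicate 5 or 9 was left out (0.49 and 0.48). With C0 replicates 1 to 3 alone as control the difference was 0.27 (adjusted p = 0.379), with the libraries brought to 1 median it was 0.34 (adjusted p = 0.0687), and the fit of X20 and C0 alone gave no call either (adjusted p = 0.0662). X20 and S20 were not told apart (0.30, 95% interval −0.14 to 0.75).

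Between 28 and 36 h E2f1 rose from 1.18, 0.940 and 0.528 RPKM in X28 to 7.66, 4.30, 7.32, 7.20, 8.81 and 12.3 in X36. Every X36 liver was above every X28 liver. Against C0 X36 stood at 3.19 ± 0.17 (9.11-fold, adjusted p = 1.73e-26, limma). The step from X28 of 2.84 ± 0.22 (7.14-fold, adjusted p = 8.09e-17, limma) was the largest of any member between neighbouring PH times, and 7 members were called higher over that step (15.1% of all genes were). From X20 to X28 limma called no member (1 had an unadjusted p under 0.05, and 10.3% of all genes were called), nor from X44 to X48 (6 under 0.05, 0.240% called). Levels then declined over X44 (5.09, 5.64 and 4.97 RPKM), X48 (2.07, 3.08, 2.78, 3.13 and 3.81) and X72 (2.57, 1.64 and 2.19) to X1W (1.03, 0.929 and 1.14), which was still above every C0 liver (0.57 ± 0.21, adjusted p = 0.027). The last call was lost in 7 of 23 alternatives, among them those without X1W replicate 1 (adjusted p = 0.0737) or 3 (adjusted p = 0.137). With the libraries brought to 1 median the difference was 0.41 (adjusted p = 0.122), and with C0 replicates 1 to 3 alone it was 0.32 (adjusted p = 0.408). In X4W the levels of 0.915 and 0.699 RPKM stood beside 0.938 and 0.823 in C4W, with no call.

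E2f2, an activator with a known role in red-cell precursors and T cells, was near the floor early, was above C0 at 20 h and had its highest group means at 36 and 44 h. In C0 it ran from 0.0413 to 0.209 RPKM (5.99 to 33.9 estimated reads), and in X4 it was 0.0339, 0 and 0.0679. In X36 it was 2.06, 1.36, 2.28, 1.12, 1.23 and 2.39 RPKM, in X44 2.58, 1.40 and 1.97, and in X48 1.14, 1.57, 1.04, 1.43 and 0.956. Every liver of these 3 groups was above every C0 and sham liver, and X20 replicate 1 (0.987) was the 1 liver before 36 h that was above any of them. The difference from C0 was 2.43 ± 0.16 (adjusted p = 2.38e-21, limma) in X36 and 2.62 ± 0.20 (adjusted p = 5.86e-18) in X44. It was still above every C0 liver later on, with 1.25, 1.09 and 1.75 RPKM in X72 and 0.659, 0.720 and 0.818 in X1W (1.47 ± 0.20, adjusted p = 9.02e-08).

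The 20 h livers of E2f2 were split like those of E2f1. X20 replicates 1 to 4 had 0.987, 0.740, 0.919 and 0.537 RPKM and replicates 5 and 6 had 0.162 and 0.261, while S20 had 0.364, 0.218 and 0.387. X20 (1.15 ± 0.16, adjusted p = 1.27e-08, limma) and S20 (0.68 ± 0.20, adjusted p = 0.00971) were both above C0, the latter call being lost without S20 replicate 1 (adjusted p = 0.0672) or 3 (adjusted p = 0.0824). At 4 weeks the unoperated C4W livers had 0.442 and 0.476 RPKM, above every C0 liver and above the 0.217 and 0.339 of X4W. Between X4W and C4W limma called no member (0 had an unadjusted p under 0.05, and 0.0650% of all genes were called), and without surgery C4 and C0 differed for none either (2 under 0.05, 7.89% of all genes called).

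E2f3, the activator expressed as a long and a short isoform from separate promoters, moved earlier and less. It was 0.632 to 1.23 RPKM in C0, with a median of 0.906, and the table does not separate the isoforms. At 10 h it had risen after both surgeries, to 2.55, 2.29, 2.59, 2.41, 2.37 and 2.42 RPKM in X10 and to 1.78, 1.72 and 1.82 in S10. The X10 livers were all above the S10 livers, and the S10 livers all above C0. The difference from C0 was 1.26 ± 0.11 (adjusted p = 1.78e-15, limma) in X10 and 0.85 ± 0.14 (adjusted p = 1.14e-06) in S10, and the difference between the surgeries of 0.41 ± 0.15 was not called (adjusted p = 0.0636). E2f3 was highest in X36, at 2.83, 2.53, 3.61, 2.83, 3.02 and 3.31 RPKM, and it fell from X36 to X44 (1.66, 1.22 and 2.14 RPKM) by 0.79 on the log2 scale (SE 0.15, adjusted p = 7.13e-05), when no other member fell by a call. With the libraries brought to 1 median, limma called E2f1 lower over this step too (−0.65, adjusted p = 0.0299).

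**Figure D3:**
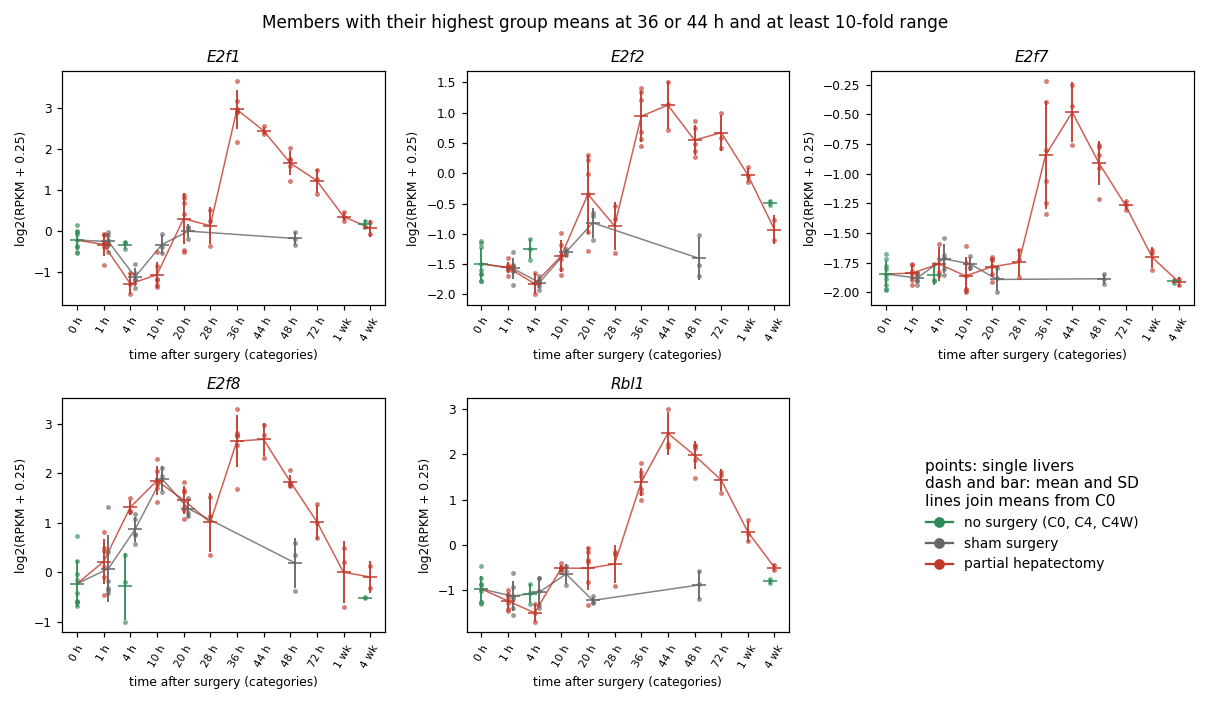
Each panel plots log2(RPKM + 0.25) against time after surgery (ordered categories, not to scale) for E2f1, E2f2, E2f7, E2f8 and Rbl1, with points for single livers, dashes and bars for mean and SD, and lines that join the means of sham (grey) and hepatectomy (red) groups from C0. E2f1, E2f2, E2f7 and Rbl1 each had a higher group mean at 36 h than in any group up to 28 h. E2f2 was already above C0 at 20 h after hepatectomy (1.15 on the log2 scale), and E2f8 had already risen at 4 h and 10 h after both surgeries.

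E2f4, the most abundant E2F of the resting liver, moved within a narrow range. C0 livers had 4.28 to 5.80 RPKM. At 4 h both surgeries were far outside that range, with 9.38, 7.73 and 9.47 RPKM in X4 and 9.57, 9.20, 9.85, 8.90 and 9.97 in S4. Against C0 the rise was 0.74 ± 0.11 (1.67-fold, adjusted p = 1.07e-07, limma) in X4 and 0.84 ± 0.09 (1.79-fold, adjusted p = 1.56e-11) in S4, and both calls held under every alternative run. The unoperated C4 livers, at 5.24, 7.48 and 6.37 RPKM, were below all of these. Against them S4 was called (0.57 ± 0.12, adjusted p = 7.39e-05, and 0.45 with no call without C4 replicate 1), 1 of 4 members called there (43.3% of all genes), and X4 was under the size a call needs (0.47 ± 0.14, adjusted p = 0.00304). E2f4 was above C0 again in X36 (0.65 ± 0.09), X44 (0.81 ± 0.11), X48 (0.66 ± 0.09) and X72 (0.61 ± 0.11), and these 4 calls were lost when libraries were scaled to the same median, where the differences were 0.28, 0.31, 0.18 and 0.23.

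E2f5, which shares its repressor role with E2f4, had its highest group mean at 48 h. C0 livers had 2.15 to 2.88 RPKM, and the 6 X36 livers had 2.54 to 3.79. The X48 livers, at 4.61, 4.38, 4.84, 6.09 and 4.67 RPKM, were above every liver of every other group, so that X48 was the highest group with no overlap with the next (X44, with 4.16, 3.35 and 4.07). The difference from C0 was 0.57 ± 0.12 (adjusted p = 4.26e-05, limma) in X44 and 0.90 ± 0.10 (1.87-fold, adjusted p = 8.59e-12) in X48. With libraries scaled to the same median these became 0.09 and 0.43 and were not called.

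E2f6, the Polycomb-associated repressor, went up after both surgeries. C0 livers ran from 1.56 to 4.04 RPKM and fell into sets by replicate number, with 3.48 to 4.04 in replicates 1 to 6 and 2.28, 2.79 and 1.56 in replicates 7 to 9. S10 livers had 7.27, 6.86 and 4.63 RPKM, and the X10 livers 4.31 to 6.59. Both were above all C0 livers, by 0.92 ± 0.16 (adjusted p = 4.39e-06, limma) and 0.73 ± 0.13 (adjusted p = 1.7e-06). X36 was highest with 6.02, 4.95, 6.24, 6.36, 7.08 and 9.32 RPKM (1.01 ± 0.13, adjusted p = 5.84e-10). The smaller calls of E2f6 depended on the controls. With C0 replicates 1 to 3 alone, the differences were 0.45 in X10, 0.34 in X20, 0.31 in X48 and 0.30 in S20, none of them called. At 4 h E2f6 was lower in X4 (2.38, 2.25 and 2.17 RPKM) than in S4 (3.12, 2.68, 4.81, 2.82 and 3.93), by −0.53 ± 0.18 (adjusted p = 0.0348), the only member called between the surgeries at that time, when 8.64% of all genes were called. That call was lost without any of the X4 livers (adjusted p = 0.0703, 0.10 and 0.125 without replicates 4, 5 and 6) and without S4 replicate 3 (adjusted p = 0.153) or 5 (adjusted p = 0.0760).

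**Figure D4:**
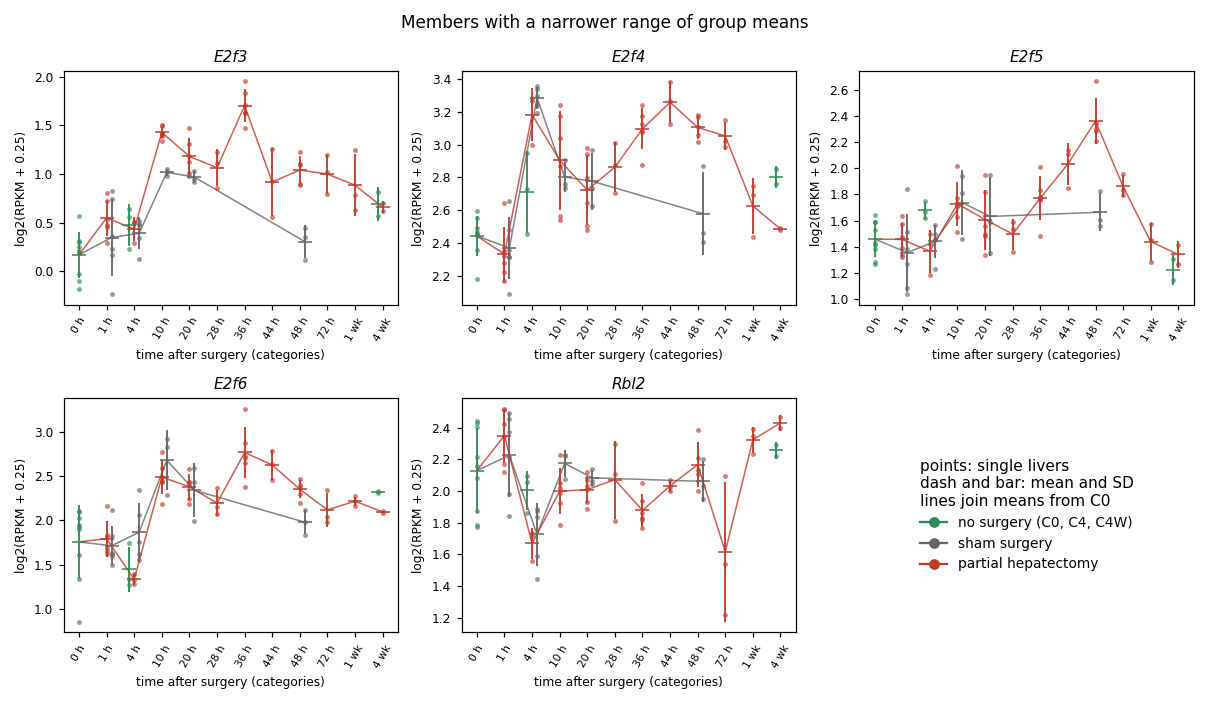
Each panel plots log2(RPKM + 0.25) against time after surgery (ordered categories, not to scale) for E2f3, E2f4, E2f5, E2f6 and Rbl2, with the same symbols as for the other 5 genes. E2f4 was at its highest after sham surgery at 4 h (9.5 RPKM) and again high at 44 h after hepatectomy (9.33 RPKM), E2f5 was highest at 48 h (4.92 RPKM), and the group means of Rbl2 differed by at most 1.76-fold.

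E2f8, an atypical repressor that hepatocytes need to become polyploid, rose from 4 h on, and its difference from C0 in S10 was the largest of any member after sham surgery. C0 livers ran from 0.377 to 0.926 RPKM but for replicate 7 with 1.40. Already at 4 h X4 had 2.10, 2.06 and 2.57 RPKM and S4 had 1.44, 1.24, 1.86, 1.45 and 2.00, against 0.25, 0.626 and 1.02 in C4. At 10 h X10 had 3.90, 3.02, 3.17, 4.6, 2.41 and 3.40 RPKM and S10 had 3.61, 4.06 and 2.84. The S10 range lay inside that of X10, and both groups were above all C0 livers. Against C0 the differences were 1.54 ± 0.28 (adjusted p = 4.07e-06, limma) in X4, 1.1 ± 0.24 (adjusted p = 5.58e-05) in S4, 2.08 ± 0.22 (4.23-fold, adjusted p = 1.63e-12) in X10 and 2.13 ± 0.28 (4.36-fold, adjusted p = 5.73e-09) in S10. All of them held under every alternative run, as did the differences from C4 at 4 h (1.59 ± 0.35 in X4 and 1.15 ± 0.31 in S4). No unoperated livers were collected at the time of day of the 10 h, 20 h, 36 h and 44 h groups. In their differences from C0 surgery and time of day thus cannot be told apart.

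E2f8 rose again after PH between 28 and 36 h, times for which no sham livers were collected. From 2.61, 1.96 and 1.03 RPKM in X28 it reached 6.77, 2.97, 6.52, 5.65, 6.55 and 9.63 in X36 and 7.59, 6.59 and 4.71 in X44, and it was 3.08, 3.23, 3.22, 3.15 and 3.94 in X48. S48 had 1.03, 1.26 and 0.516 RPKM, below all X48 livers and inside the range of C0. The step from X28 to X36 was 1.64 ± 0.30 (3.12-fold, adjusted p = 1.31e-05, limma). By 1 week, at 0.902, 0.366 and 1.16 RPKM, E2f8 was no longer called against C0, when E2f2, Rbl1, E2f3 and E2f1 were. Of these, the call of E2f1 was lost in 7 of 23 alternatives.

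E2f7, the other atypical repressor, had no early phase that the depth could show. It was at most 0.0939 RPKM in every sham liver and in every PH liver up to 28 h, and it was listed at 0 in 1 S20 and 1 X10 liver. In X36 it was 0.510, 0.146, 0.171, 0.229, 0.325 and 0.608 RPKM, in X44 0.588, 0.492 and 0.342 (77.8 to 152 estimated reads), and in X48 0.18, 0.341, 0.266, 0.335 and 0.307. All of these livers were above every earlier one. The differences from C0 were 1.00 ± 0.09 (SE) in X36, 1.37 ± 0.12 in X44 and 0.94 ± 0.10 in X48. Since E2f7 lies well below the pseudocount, these are far smaller than the ratio of its RPKM values. E2f7 passed the detection threshold only through livers of X36 and X44, so its calls are no independent support for the rise. E2f7 made up 4.8% of the sum of both atypical transcripts in C0 (0.472 to 13.3% in single livers) and 6.97% in X44 (6.77 to 7.19%), so that E2f8 was the main atypical E2f transcript at each time.

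Rbl1, the gene of p107 and itself a target of E2F activators, had its highest level at 44 h. C0 livers ran from 0.156 to 0.479 RPKM. X10 had 0.503, 0.440, 0.411, 0.453, 0.465 and 0.439 RPKM and S10 had 0.418, 0.293 and 0.477. At 20 h X20 had 0.698, 0.641, 0.550, 0.517, 0.149 and 0.315, the last 2 in the same livers that were low for E2f1 and E2f2, and S20 had 0.159, 0.169 and 0.207. Rbl1 was the only member called between PH and sham at 20 h (0.71 ± 0.21, 1.63-fold, adjusted p = 0.015, limma), when 7.11% of all genes were called. The call was lost without S20 replicate 1 (adjusted p = 0.0795) or 2 (adjusted p = 0.0635) and with X20 replicates 4 to 6 alone (0.38, adjusted p = 0.349). With X20 replicates 1 to 3 alone, 3 members were called.

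Between 28 and 36 h Rbl1 rose from 0.649, 0.615 and 0.285 RPKM to 3.24, 1.72, 2.81, 1.98, 2.10 and 2.64 (1.81 ± 0.21, adjusted p = 7.05e-11, limma). It then went on to 7.78, 4.45 and 4.20 RPKM in X44, above every X36 liver, and it was the only member called higher between these times (1.08 ± 0.21, 2.11-fold, adjusted p = 6.82e-05; 9.52% of all genes were called). Against C0 X44 stood at 3.43 ± 0.19 (10.8-fold, adjusted p = 1.31e-24), the largest difference of any member from C0. The level was 2.54, 4.30, 3.39, 4.36 and 4.17 RPKM in X48, 2.68, 1.96 and 2.78 in X72 and 0.926, 0.815 and 1.2 in X1W, each above all C0 livers. At 4 h Rbl1 had been lower in X4 (0.154, 0.0588 and 0.105 RPKM) than in C0 (−0.53 ± 0.19, adjusted p = 0.0167), a call that was lost without X4 replicate 5 (−0.43, adjusted p = 0.110) or without C0 replicate 2 (−0.46) or 7 (just short of the size a call needs).

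Rbl2, the gene of p130, was the 1 member that was called higher than C0 in no group. It was 3.17 to 5.19 RPKM in C0, again with the lowest values in replicates 7 to 9 (3.17, 3.19 and 3.41). X36 had 3.27, 3.58, 3.15, 3.90, 3.38 and 3.31 RPKM, X44 had 3.96, 3.82 and 3.75, and X48 had 3.75, 4.07, 4.97, 4.13 and 4.37. All of these lay within or at the edge of the C0 range, and none was called (−0.25 ± 0.10, −0.10 ± 0.13 and 0.04 ± 0.10), though with the libraries brought to 1 median X36 and X44 were called lower than C0 (−0.61 and −0.58). In X4 Rbl2 was at 3.07, 3.04 and 2.69 RPKM, below every C0 liver, with a difference of −0.46 ± 0.13 (adjusted p = 0.00133, limma) that was short of the size a call needs. X72 had 2.08, 4.02 and 2.65 RPKM and was called lower than C0 (−0.51 ± 0.13, adjusted p = 0.000443) and than X48 (−0.55 ± 0.14, adjusted p = 0.0046), the latter as the only member (5.96% of all genes were called), and without X72 replicate 1 neither call was made (adjusted p = 0.0620 and 0.174). The former was also lost without X72 replicate 3 (−0.47) or C0 replicate 2, 5 or 6 (−0.48, −0.47 and −0.48). With C0 replicates 7 to 9 alone as control it was −0.19 (adjusted p = 0.244), and in the fit of X72 and C0 alone the adjusted p was 0.0583. The call against X48 was also lost with libraries scaled to the same median (−0.44). X1W with 4.45, 4.84 and 5.00 RPKM was above X72 (0.71 ± 0.15, adjusted p = 0.000372), with no call in the fit of these groups alone (adjusted p = 0.108). Between X72 and X1W 4 members were called lower and only Rbl2 higher, and 16.3% of all genes were called. Of those 4, Rbl1 (−1.14 ± 0.24) kept its call under every alternative, while E2f1 lost it without X72 replicate 1 (adjusted p = 0.0706), E2f8 without X72 replicate 3 (adjusted p = 0.123) or X1W replicate 2 (adjusted p = 0.232), and E2f2 without any of 4 livers (adjusted p = 0.0645 to 0.176).

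PH and sham parted for few members up to 20 h and for most at 48 h. Limma called none of the members at 1 h (0 had an unadjusted p under 0.05, and 0.650% of all genes were called), and 1 was called at each of 4 h, 10 h and 20 h, as given above for E2f6, E2f1 and Rbl1. At 48 h 8 of 10 were higher after PH, against 24.5% of all genes, with Rbl1 at 2.86 ± 0.21 (7.25-fold, adjusted p = 1.48e-18, limma), E2f2 at 1.95 ± 0.22 (adjusted p = 4.28e-11), E2f1 at 1.84 ± 0.23 (adjusted p = 6.65e-10), E2f8 at 1.64 ± 0.31 (adjusted p = 1.37e-05), E2f7 at 0.98 ± 0.13, E2f3 at 0.74 ± 0.16, E2f5 at 0.70 ± 0.13 and E2f4 at 0.52 ± 0.12. E2f6 (0.37, 95% interval 0.01 to 0.73) and Rbl2 (0.11, −0.17 to 0.38) were not called. The median of all genes moved by 0.27 in this comparison, and with libraries scaled to the same median the calls of E2f3, E2f4 and E2f5 were lost (0.32, 0.05 and 0.23) and the share of higher genes among all calls was 38.8% instead of 90.1%. The call of E2f4 was also lost without S48 replicate 1 (0.44) or 2 (0.47).

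Whether the difference between PH and sham changed between 20 h and 48 h was tested directly. It was larger at 48 h for 7 of the 10 members, against 12.5% of all genes, with Rbl1 at 2.15 ± 0.30 (adjusted p = 3.39e-08, limma), E2f1 at 1.54 ± 0.32 (adjusted p = 0.000231), E2f2 at 1.48 ± 0.31 (adjusted p = 0.000264), E2f8 at 1.47 ± 0.43 (adjusted p = 0.0127), E2f7 at 0.87 ± 0.18, E2f5 at 0.72 ± 0.18 and E2f4 at 0.58 ± 0.17. It was not called for E2f3 (0.52 ± 0.22, adjusted p = 0.0916), E2f6 or Rbl2. The call of E2f4 was lost without S20 replicate 3 (adjusted p = 0.0851) or S48 replicate 1 (adjusted p = 0.0834), that of E2f5 without S20 replicate 3 (adjusted p = 0.0502), and that of E2f8 without S48 replicate 3 (adjusted p = 0.0772). X48 and S48 were collected in the same experimental period by the study's account, whereas the S10 and S20 livers came from a single period and the X10 and X20 livers from that and an earlier one. The replicate numbers of each period are not given in the sources used here, so period could not be entered in the fit.

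**Figure D5:**
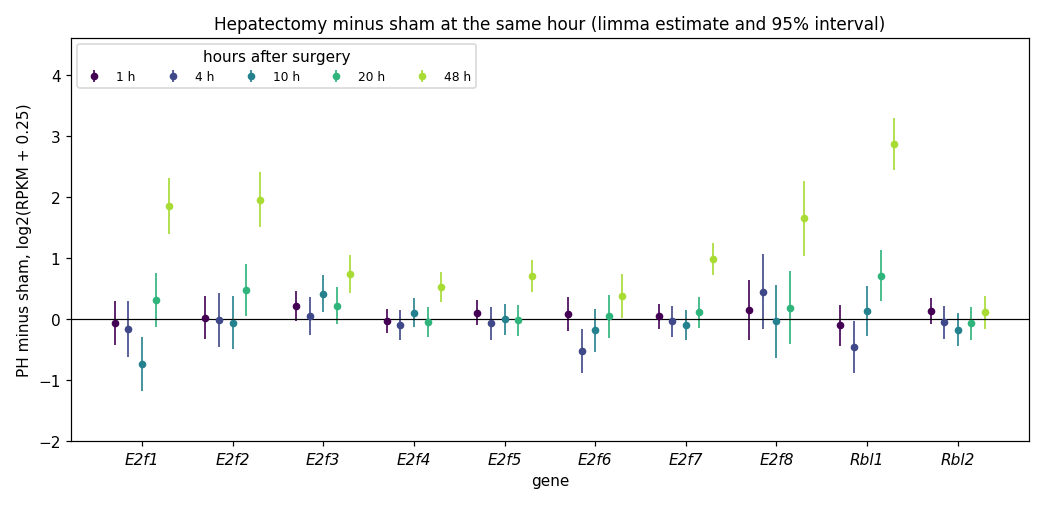
For each gene the points give the limma estimate of hepatectomy minus sham on log2(RPKM + 0.25) at each of the 5 times with sham livers, with 95% intervals, and the line marks 0. The 48 h points stand apart from 0 for all members but Rbl2, with E2f6 close to it, and the 10 h point of E2f1 is on the other side of 0.

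Other genes of the pathway were counted by lists. The list of the retinoblastoma gene, DP partners and G1 cyclins and kinases held 11 genes. Of these, 6 were higher and 1 lower in X10, when 36.4% of all genes were called. The same counts were found in S10 (17.9% of all genes called higher), and 8 were higher in X36 (25.7% called higher). Rb1 itself was called in neither (0.39 in X10 and 0.31 in X36), while Tfdp1, the gene of the DP partner DP1, was at 0.86 in X10, 0.84 in S10 and 1.72 in X36, all called. Ccnd1 (cyclin D1) was at 2.77 in X10 and 4.51 in X36, and Ccne1 (cyclin E1) at 2.34 and 4.42. The median of this list was 1.23 in X36, where that of all genes was 0.16. The cyclin Ccnd1 also differed between PH and sham at 20 h, by 2.42.

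Textbook E2F targets (23 genes, for DNA replication, nucleotide synthesis and cell division) were counted beside the members. In X10 6 were higher and 3 lower, when 36.4% of all genes were called, and their median of 0.07 was that of all genes. In S20, where E2f2, E2f3, E2f6 and E2f8 were called higher than C0, limma called none of the 23 targets (4 had an unadjusted p under 0.05, and 7.85% of all genes were called higher), and their median difference was −0.10. In X20 11 were higher (16.5% of all genes were) and 1 lower, with a median of 0.47, and between X20 and S20 13 were higher and 1, Tk1 (thymidine kinase), was lower at −1.38. In X36 22 of 23 were higher (25.7% of all genes), with a median of 3.5, among them Uhrf1, a maintenance factor of DNA methylation, at 5.66, and Tk1 was not called (0.44). In X44 and X48 all 23 were higher. Ccna2 (cyclin A2) went from 4.02 in X36 to 5.75 in X44, and Cdk1, the mitotic kinase, from 4.13 to 5.78. In X4 7 targets were lower and 1 higher (Rrm2, 1.56), no larger a share than the 38.2% of all genes called, with a median of −0.40 against −0.20 for all genes. In S4 6 were lower and 4 higher, when 34.4% of all genes were called.

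The MuvB core and B-Myb (6 genes) and the E2F6 partners (6 genes) were counted in the same way. Of the MuvB list 4 were higher in X36 (25.7% of all genes) and 5 in X44 (30.8%), among them Lin9 (1.81 and 1.89) and Lin54 (1.59 and 1.95), the DNA-binding subunit, while Rbbp4 was at 0.03 and 0.11 and not called. Between X4 and S4 4 of the 6 were lower (8.64% of all genes called). Of the E2F6 partners L3mbtl2 (1.23) and Pcgf6 (0.71) were higher in X36, a share near that of all genes, and in X48 4 were higher (30.4% of all genes) and 1 lower.

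The likeness of profiles was measured as Pearson's r of group means on log2(RPKM + 0.25) over the 19 groups, which share their animals' handling and library preparation, and it is given as a description over 10510 protein-coding genes. For E2f1 the most alike were Pole, Rpa1 and Lig1 (r = 0.97 each), for E2f2 Rad54b (0.97), Dck (0.96) and Setd8 (0.95), for E2f7 Rad54l (0.99), Fancd2 (0.98) and Bard1 (0.98), and for Rbl1 Ncapd2, Smc2 and Smc4 (0.99 each). Profiles of the other members had their nearest genes elsewhere, with Stk35 and Hmgxb3 among those for E2f8 (0.93 and 0.91), Prune, Dgkd and Fam20b for E2f3 (0.93 each), Phrf1, Noc4l and Sf3a3 for E2f4 (0.94 to 0.93), Btbd9, 2310003C23Rik and Pomt2 for E2f6 (0.94 to 0.93), Wbp5, Zfp212 and Arpc1b for E2f5 (0.90) and Hps4, N4bp2 and Klhl24 for Rbl2 (0.87 to 0.84). Among the members themselves E2f1 and E2f2 were the closest pair (0.94), followed by E2f7 and Rbl1 (0.93) and E2f2 and Rbl1 (0.93). E2f8 was closest to E2f3 (0.72), E2f7 (0.70) and E2f4 (0.69), and Rbl2 ran against E2f4 (−0.72) and was at −0.14 with Rbl1.

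The order of the 19 group means was set for few of the neighbours. Of 18 neighbouring pairs in each gene's order, livers did not overlap in 3 for E2f1, in 2 each for E2f2, E2f7 and Rbl1, in 1 each for E2f5, E2f6 and E2f8, and in none for E2f3, E2f4 and Rbl2. The ratio of the highest to the lowest group mean was 58.4 for E2f2, 51.6 for Rbl1, 47.9 for E2f1, 31.0 for E2f7 and 14.1 for E2f8. It was 3.41 for E2f3, 2.94 for E2f6, 2.35 for E2f5, 1.97 for E2f4 and 1.76 for Rbl2.

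Markers of other cells were measured beside these results. All 7 hepatocyte markers were detected, with a sum between 24480 and 57451 RPKM over all livers, and none of the 6 pancreas markers passed the detection threshold. Of 9 erythroid markers 6 were detected, and in X36 the 4 globin genes were higher than in C0 while Alas2 (−1.70) and Klf1 (−0.77), which mark red-cell precursors, were lower. In X48 Alas2 (−1.99) and Klf1 (−1.03) were lower still and no globin gene was called, when E2f2 was at 0.956 to 1.57 RPKM. The summed erythroid markers were 38.9 to 143 RPKM in C0, 41.7 to 136 in X36 and 29.7 to 66.5 in X48. The macrophage markers summed to 17.5 to 257 RPKM in C0, with the highest value in replicate 8, and to 42.7 to 78.5 in X48 and 58.0 to 88.3 in S48. Of 4 B-cell markers 3 were lower in both X36 and X48 than in C0, of 6 endothelial markers 2 were lower in X36, of 5 stellate markers 1 was higher and 1 lower in X36 and 1 higher in X48, of 7 detected neutrophil markers 1 was higher in both, of 4 cholangiocyte markers 2 were lower in X36 and 1 in X48, and of 2 detected T-cell markers 1 was lower in both. Between X48 and S48 2 stellate markers and 1 neutrophil marker were higher. Of all genes, 25.7% were called higher in X36, 30.4% in X48 and 24.5% in X48 against S48. Higher genes made up 73.5%, 79.9% and 90.1% of all calls in these comparisons, in that order. No count of members called against C0 moved by more than 1.5 times without C0 replicate 8, but for X4W, where 1 member was then called. The part of other cell types in the results was not tested.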

How the data were processed

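The authors trimmed the single-end 100 nt reads with Cutadapt and prinseq-lite, mapped them to mm9 with TopHat 2.0.13 and Bowtie2, and counted them by strand per Ensembl 67 gene with featureCounts, a read with several positions counting as 1 divided by their number. The deposited values are the authors' log2 RPKM, with genes without reads at −14.29, and RPKM divides by the library total, so that a change in abundant transcripts shifts all others. Columns of 4 libraries matched no labelled sample and were not used. Depth, estimated from the smallest steps of RPKM, was 12.2 to 48.8 M reads per liver (median 26.7 M), and low values were whole reads too seldom for a count test (median 77.1% within 0.05 read, 35.9% in 1 library).

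Groups were compared with limma 3.58.1 (R 4.3.3, trended prior, a coefficient per group) on log2(RPKM + 0.25) over 15396 genes above −1.5 in at least 1 library, with Benjamini-Hochberg adjustment within each of 32 comparisons. Livers are separate animals. Named are all members, fixed pathway lists and, per member, the 3 genes most alike. Of these genes, 1 like E2f8 is not reported here. The members and lists were chosen with earlier results of these data known. Alternatives were other pseudocounts, filters, scaling, a fit of the compared groups only, a constant prior, a block on replicate number, parts of the replicates and leaving out each library. Tables used Python 3.11.15.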

Additional observations from a re-analysis of the deposited data

Results flagged for a closer look

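In X48 the E2f8 level of replicate 5, 3.94 RPKM, stood apart from the other 4 livers (3.08 to 3.23 RPKM). Its gap to the nearest of them was 0.81 of the range of the group, beyond Dixon's limit of 0.71, and it was the 1 value so marked in 80 such tests, where chance marks about 1 in 20. The call of E2f8 in X48 against C0 and against S48 held without this liver.

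The difference between PH and sham was larger at 48 h than at 20 h, by the test of the change itself, for E2f1 by 1.54, for E2f2 by 1.48, for E2f4 by 0.58, for E2f5 by 0.72, for E2f7 by 0.87, for E2f8 by 1.47 and for Rbl1 by 2.15 on the log2 scale. With all libraries brought to 1 median, E2f4 (0.19), E2f5 (0.34) and E2f8 (1.11, adjusted p = 0.0840) were not called in this comparison.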

How the results depend on the processing

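Of 105 calls of single members, 54 held under every alternative and none was reversed. Counts of members called moved beyond 1.5 times as follows. With a pseudocount of 0.1 the count was 1 in X4W and 2 from X48 to X72. With a pseudocount of 1 it was 2 in X4, X28, X1W and S20 against C0, 0 between PH and sham at 4, 10 and 20 h, 5 at 48 h, 1 in X4 and 2 in S4 against C4, and 1 from X44 to X48. Without the filter on low values it was 0 for X4 against S4 and 3 from X72 to X1W. With libraries scaled to the same median it was 3 in X20 and 5 in X48 against C0, 0 for X4 against S4, 5 for X48 against S48, 0 from X48 to X72, 3 from X72 to X1W and 4 for the change of PH minus sham from 20 to 48 h. In a fit of the compared groups only it was 0 for X4 against S4, 0 for X20 against S20 and 2 from X72 to X1W. With C0 replicates 1 to 3 alone it was 3 in X20, 2 in X28, 2 in S20 and 1 in C4, with replicates 4 to 6 alone 1 in C4, and with replicates 7 to 9 alone 2 in X1, 3 in X4W and 1 in S48. With replicates 4 to 6 alone of the larger groups it was 0 between PH and sham at 4, 10 and 20 h, and with replicates 1 to 3 alone 3 at 20 h. Leaving out 1 library gave 0 to 1 in X1 and X4W, 2 to 4 in S20 and 2 to 5 in X28 against C0, 0 to 1 for X4 against S4 and X10 against S10, 0 to 2 for X20 against S20, 0 to 1 from X20 to X28 and from X44 to X48, 0 to 3 from X48 to X72 and 3 to 5 from X72 to X1W. The libraries concerned are C0 replicates 1, 3 and 8 for X4W, C0 replicate 7 and X1 replicate 1 for X1, X28 replicates 1 and 2, X20 replicates 5 and 6, X44 replicate 3, X48 replicates 1, 2 and 5 and X72 replicate 2, besides those named in the report. The cause was not tested. A constant prior variance and the stricter filter moved no count by that much.

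Replicate numbers are shared between groups but mark no common animal. Same-numbered libraries of different groups deviated from their group means with correlations of −0.21 to 0.30 (median 0.01), and 8 of 80 libraries correlated best with their own number. With a replicate block the count of members called was 3 in X20 and 1 in C4 against C0, 1 from X20 to X28 and 2 from X48 to X72. Of the single calls 95 of 105 held under the block.

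E2f7 and, up to 28 h, E2f2 and Rbl1 rest on few reads, and the pseudocount compresses their differences.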
